A study of Mus musculus with 10 samples.

Results

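The genes described here are those of fatty acid oxidation, the peroxisome and the peroxisome proliferator-activated receptors (PPARs) in mouse distal colon. The list names 38 genes, and a gene was measured where a probe set of the array is annotated to it alone, with the probe set of highest mean taken where there were several. Of the 38 genes 36 were measured, among 18193 genes of the array, and Acsl1 and Ucp2 were not analysed here.

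Every mouse was Rag1-/- on the C57BL/6 background, and so lacked lymphocytes of its own making, both T and B cells. In the T-cell transfer model of colitis, 4 control mice received regulatory T cells (Tregs) and 6 inflamed mice received naïve T cells, of which the labels grade 3 as moderately and 3 as severely inflamed. Injection was at 10 weeks of age and the distal colon, taken up to its junction with the proximal colon, was collected 2 to 3 months later, at an age of 4 to 5 months. Each mouse gave 1 array, and values are on the log2 scale, where 1 unit is a 2-fold change. A mouse given no T cells was not analysed here, so that the controls carry both the Rag1 deletion and transferred cells.

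Fatty acids enter the cell with the help of transporters and binding proteins, are joined to coenzyme A, and reach the mitochondrial matrix through the carnitine shuttle, where beta-oxidation shortens them step by step and passes electrons to the respiratory chain. Peroxisomes start the breakdown of chains that are too long or too unusual for mitochondria and make hydrogen peroxide, which catalase removes. PPARs are nuclear receptors that bind fatty acids and switch on many of these genes together with a retinoid X receptor, and the absorptive cells of the colon are known for taking much of their energy from butyrate and other short-chain fatty acids.

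Most of the 36 measured members were lower in inflamed colon. At an adjusted p under 0.05 (limma, two-sided, Benjamini-Hochberg over all genes), 22 of the 36 members fell, against 21.2% of all genes, and 3 rose, against 18.5%. The remaining 11 did not pass the test. The members were chosen with earlier results of these data known, so these shares are a description and not a test of the list. The median difference between inflamed and control colon was -0.46 over the 36 members and 0.03 over all genes, and 9 members fell at least 2-fold while the largest rise was 1.63-fold. In 19 of the members that fell and in 2 of those that rose the 6 inflamed arrays did not overlap the 4 control arrays, which held for 17.1% of all genes toward lower and 14.6% toward higher values. The RNA was that of whole tissue, so fewer cells of a type and less RNA per cell cannot be told apart.

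**Figure D1:**
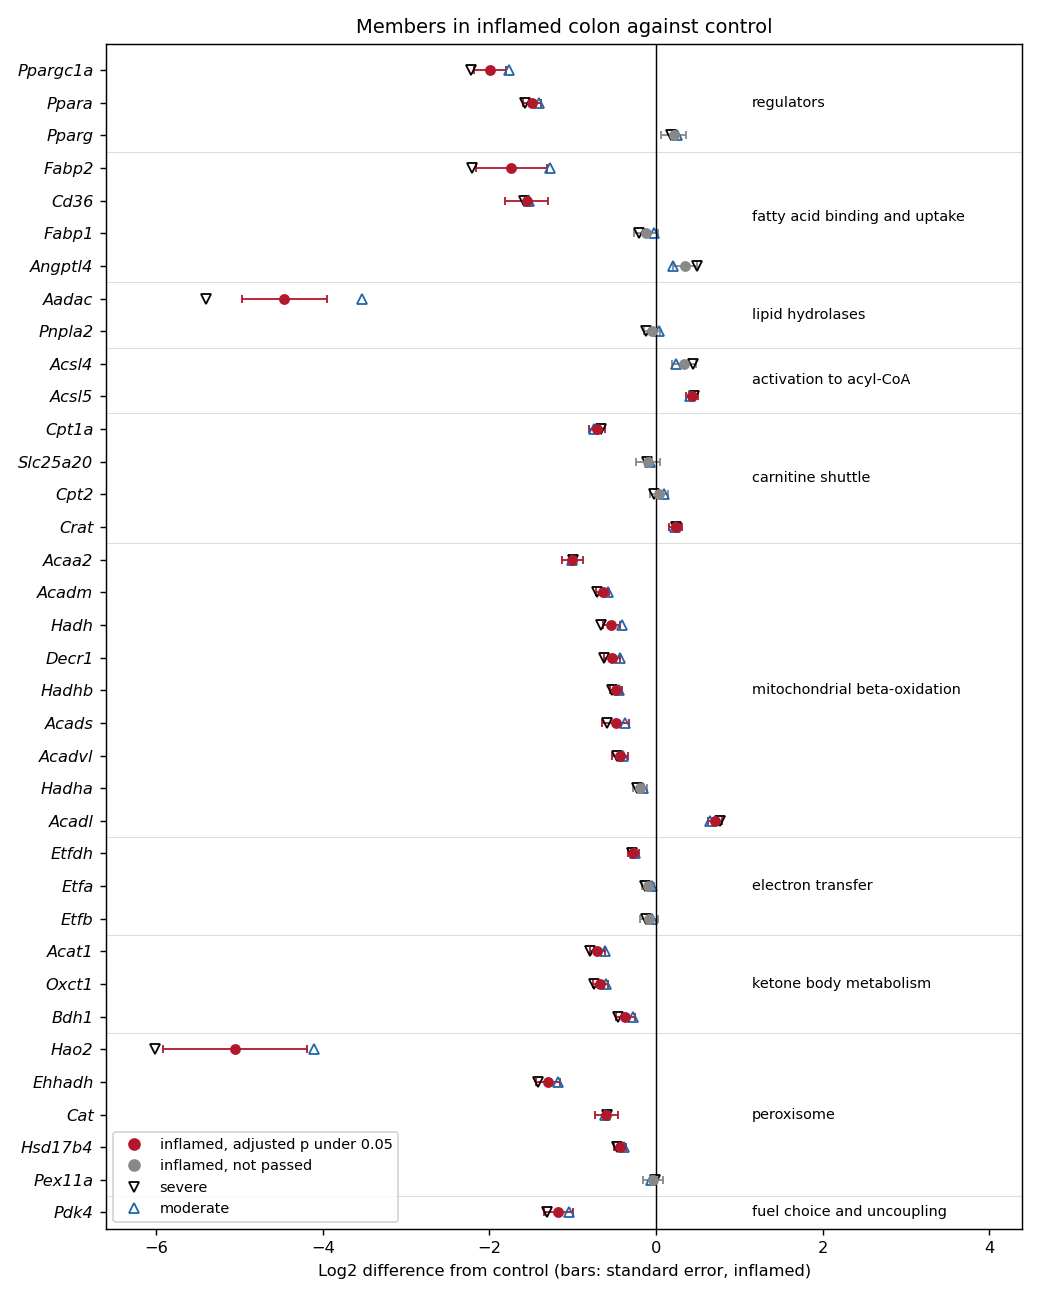
Log2 difference from control (x axis) of the 36 members (y axis, grouped by role). Filled points are the 6 inflamed arrays against the 4 control arrays with the standard error, red where adjusted p was under 0.05, and open triangles the severe (black, pointing down) and moderate (blue, pointing up) grades. Hao2, at -5.06, and Aadac, at -4.46, lie farthest to the left, and Acadl, at 0.71, farthest to the right.

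Markers of other cells moved between the groups as well. The 8 smooth muscle genes all fell, with a mean log2 level of 11.52 to 11.95 on control, 9.64 to 10.51 on moderate and 9.61 to 9.92 on severe arrays. Of 7 measured macrophage and monocyte genes 6 rose, all 5 measured neutrophil genes and all 4 measured T cell genes rose, and 4 of 5 endothelial genes fell. Among genes of epithelial cells in general 2 of 8 rose, with a mean level of 12.98 to 13.09 on control and 13.09 to 13.23 on inflamed arrays, whereas 5 of 7 genes of absorptive colonocytes fell and 1 rose, with levels of 13.01 to 13.26 on control, 12.03 to 12.56 on moderate and 11.13 to 12.20 on severe arrays. Of 7 genes listed for the distal colon 3 fell, and the mean level of the 7 was 11.64 to 12.05 on control and 11.14 to 11.66 on inflamed arrays. The list holds Cdx1, Cdx2, Muc2, Car1, Slc26a3, Hoxb13 and Hoxd13, of which Car1 and Slc26a3 are also in that of absorptive colonocytes. It is therefore no separate check of the labelled region. Among 4 fibroblast genes 1 fell. Of 11 skeletal muscle genes Smpx and Ckm fell, with differences of -4.82 and -0.81, while the myosins Myh1, Myh2 and Myh4 had control means of 3.93, 3.46 and 3.27. Of 6 measured adipocyte genes Lipe rose by 0.33 and Fabp4 fell by 0.80, and their mean level was 4.99 to 5.82 on control and 4.95 to 5.25 on inflamed arrays. The adipocyte genes Adipoq and Lep had control means of 4.21 and 3.21. The arrays' lower quartile had a median of 3.84. The part of these shifts in the differences below was not tested. Severe replicate 1 stood apart from the other inflamed arrays in 8 of the genes named here, and without it 22 members fell and 3 rose.

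Of the 3 regulators, Ppara and Ppargc1a fell and Pparg did not pass the test. Ppara, the receptor that drives fatty acid oxidation in liver, heart and gut, had log2 values of 6.97, 6.68, 6.99 and 6.90 on the control arrays, 5.55, 5.33 and 5.57 on the moderate and 5.04, 5.43 and 5.48 on the severe arrays. Every inflamed array lay more than 1 log2 unit below the lowest control array. The difference was -1.48 (SE 0.11, limma adjusted p = 3.63e-06), or 2.80-fold, and the other probe sets of the gene differed by -0.81 and -2.04.

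Ppargc1a, a coactivator of PPARs and of mitochondrial biogenesis, read 9.97, 10.25, 10.01 and 9.96 on control, 8.38, 8.15 and 8.32 on moderate and 7.58, 8.44 and 7.48 on severe arrays. Inflamed and control arrays were well separated, while severe replicate 2 lay above all moderate arrays and the other severe arrays lay below them. The difference was -1.99 (SE 0.19, limma adjusted p = 1.56e-05), or 3.98-fold, and its 5 probe sets lay between -2.05 and -1.76.

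Pparg, the receptor of adipocytes that colonocytes also express, read 9.25, 8.80, 9.26 and 9.33 on control, 9.15, 9.47 and 9.60 on moderate and 9.11, 9.15 and 9.75 on severe arrays. The groups overlapped widely, and the difference of 0.21 (95% confidence interval -0.12 to 0.54, limma adjusted p = 0.29) did not pass the test. Without the lowest array, control replicate 2, the difference was 0.09 (limma adjusted p = 0.669).

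**Figure D2:**
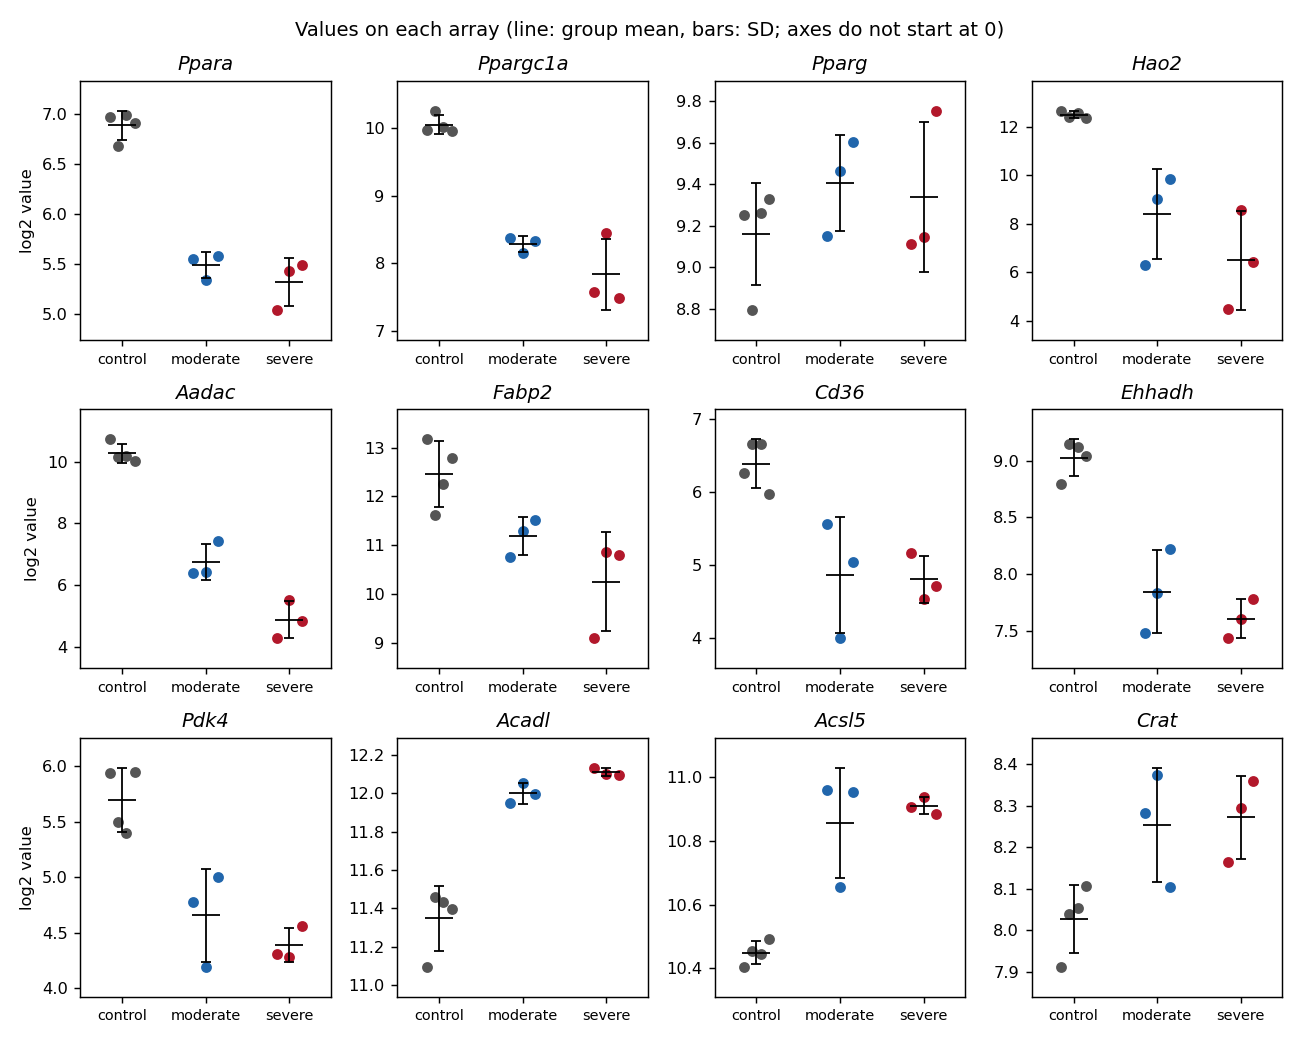
Log2 value on each array (y axis) for 12 members in control, moderate and severe colon (x axis). Points are arrays, lines group means and bars SD, with a y axis of its own for each gene. In the 8 panels of Ppara, Ppargc1a, Hao2, Aadac, Fabp2, Cd36, Ehhadh and Pdk4 all inflamed points lie below the control points, in Acadl and Acsl5 above them, and in Pparg and Crat the groups overlap.

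Among the 4 genes of fatty acid binding and uptake, Fabp2 and Cd36 fell. Fabp2, the fatty acid-binding protein of the intestinal epithelium, read 13.17, 11.63, 12.26 and 12.78 on control, 10.75, 11.30 and 11.51 on moderate and 9.09, 10.87 and 10.80 on severe arrays. The highest moderate array lay just below the lowest control array, and severe replicate 1 lay far below the rest. The difference was -1.74 (SE 0.43, limma adjusted p = 0.00674), and it passed in severe colon (-2.20, limma adjusted p = 0.00326) but not in moderate colon (-1.27, limma adjusted p = 0.0572).

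Cd36, which takes up long-chain fatty acids and is also found on macrophages and endothelium, read 6.26, 6.66, 6.65 and 5.97 on control, 5.56, 3.99 and 5.03 on moderate and 5.16, 4.53 and 4.72 on severe arrays. All inflamed arrays lay below all control arrays, with moderate replicate 2 lowest. The difference was -1.58 in severe and -1.52 in moderate colon. The pooled difference was -1.55 (SE 0.26, limma adjusted p = 0.000601), and -1.02 with the mean over its 3 probe sets. Fabp1, the liver type of binding protein, was dim in every group, with a control mean of 3.49 ± 0.17 (SD, n = 4) and a difference of -0.12 (95% confidence interval -0.43 to 0.19). Its second probe set, at a control mean of 2.88, differed by -0.41 without overlap. Angptl4, a secreted inhibitor of lipoprotein lipase that PPARs induce, differed by 0.35 (limma adjusted p = 0.0778) in inflamed colon as a whole and rose by 0.49 in severe colon (limma adjusted p = 0.0323). The second probe set of Angptl4, at a control mean of 2.41, differed by -0.01.

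PPARs with their retinoid X receptor partner bind a direct repeat of the half-site AGGTCA with 1 base between the copies. This repeat was searched, with at most 2 mismatches over the 12 fixed letters and on both strands, in the 250 bases before each start of the RefSeq promoter table (GRCm38.p6), which holds 32 of the members. A match was found in 4 of their 36 promoters, or 11.1%, and in 1063 of 32851 promoters of all genes, or 3.24%. The HNF4A motif CAAAGTCCA, bound by a nuclear receptor of the gut epithelium and searched without mismatch on both strands, was in 0 of the 36 and in 0.384% of all promoters. With a share this low, 0 of 36 does not set the members apart from all genes. The mismatches allowed differed between the motifs, so their results are not compared. Angptl4, Crat, Acaa2, Decr1, Acat1 and Hsd17b4 had no entry. The genes with a match were Cd36, Cat, Fabp1 and Etfa, and the 250 bases before their starts are shown so that the matched letters, in capitals, can be read beside the values: Cd36 and Cat fell, with differences of -1.55 and -0.59, while Fabp1 and Etfa, at -0.12 and -0.09, did not pass the test. A match of letters is a description and not a measured binding site.
Cd36: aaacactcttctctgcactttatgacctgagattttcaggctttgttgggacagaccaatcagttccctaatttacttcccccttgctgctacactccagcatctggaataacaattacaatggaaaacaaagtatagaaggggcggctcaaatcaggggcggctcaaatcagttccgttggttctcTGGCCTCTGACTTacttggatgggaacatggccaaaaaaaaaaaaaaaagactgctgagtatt
Cat: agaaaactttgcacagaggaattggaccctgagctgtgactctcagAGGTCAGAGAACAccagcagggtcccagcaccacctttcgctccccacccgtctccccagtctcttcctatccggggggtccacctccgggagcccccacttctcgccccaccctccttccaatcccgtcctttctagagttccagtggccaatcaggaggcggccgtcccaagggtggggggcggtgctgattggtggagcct
Fabp1: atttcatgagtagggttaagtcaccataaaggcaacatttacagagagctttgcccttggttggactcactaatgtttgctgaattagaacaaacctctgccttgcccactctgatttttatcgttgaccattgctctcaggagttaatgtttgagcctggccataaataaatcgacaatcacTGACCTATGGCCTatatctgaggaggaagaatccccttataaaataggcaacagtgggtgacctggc
Etfa: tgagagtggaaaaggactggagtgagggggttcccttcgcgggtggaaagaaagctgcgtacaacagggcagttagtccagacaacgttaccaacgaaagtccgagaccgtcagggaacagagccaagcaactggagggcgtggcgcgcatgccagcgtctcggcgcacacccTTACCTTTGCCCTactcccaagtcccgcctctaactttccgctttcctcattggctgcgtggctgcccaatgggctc
The stretches are chr5:17835897-17836146, minus strand for Cd36, chr2:103485154-103485403, minus strand for Cat, chr6:71199629-71199878, plus strand for Fabp1 and chr9:55512244-55512493, minus strand for Etfa, each read 5′ to 3′ on the strand of the gene. The match of Cd36 lay 63 to 51 bases before the start and that of Cat 204 to 192 bases before it. The matches of Fabp1 and Etfa lay 67 to 55 and 77 to 65 bases before theirs. Fabp1 had 1 mismatch and the others had 2. The match of Cat read along the gene's strand and those of the other 3 genes along the opposite strand, where Cd36 reads AAGTCAGAGGCCA Fabp1 AGGCCATAGGTCA and Etfa AGGGCAAAGGTAA.

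Of the 2 lipid hydrolases, Aadac fell and Pnpla2 did not pass the test. Aadac, an esterase of the endoplasmic reticulum that acts on stored lipid and on drugs, read 10.73, 10.17, 10.19 and 10.01 on control, 6.40, 6.43 and 7.43 on moderate and 4.29, 5.51 and 4.84 on severe arrays. The 3 groups did not overlap at any point, with severe arrays lowest. The difference was -4.46 (SE 0.50, limma adjusted p = 4.08e-05), or 22.0-fold, and came to 42.1-fold in severe and 11.5-fold in moderate colon. Pnpla2, the adipose triglyceride lipase that opens fat droplets, differed by -0.04 (95% confidence interval -0.26 to 0.17).

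Neither measured synthetase that joins long-chain fatty acids to coenzyme A was lower in inflamed colon. Acsl5, the form of intestinal epithelium, read 10.40, 10.45, 10.45 and 10.49 on control, 10.96, 10.66 and 10.95 on moderate and 10.91, 10.94 and 10.89 on severe arrays. Every inflamed array lay above every control array, with moderate replicate 2 the nearest to them. Acsl5 rose by 0.43 (SE 0.07, limma adjusted p = 0.000507), and Acsl4, which prefers arachidonic acid, differed by 0.34 (95% confidence interval 0.02 to 0.66, limma adjusted p = 0.0878).

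The 4 genes of the carnitine shuttle did not move together. Cpt1a, the entry enzyme of the outer mitochondrial membrane and the rate-limiting step of the pathway, fell by 0.70 (SE 0.09, limma adjusted p = 0.000123). It read 10.61 to 11.06 on control and 10.03 to 10.33 on inflamed arrays. Its other probe sets differed less, by -0.33 and -0.41, also without overlap. Cpt2, which releases the acyl group inside, and Slc25a20, which exchanges acylcarnitine for carnitine across the inner membrane, differed by 0.04 (95% confidence interval -0.20 to 0.27) and -0.09 (-0.42 to 0.23), so that neither passed the test. Crat, the acetyltransferase of the shuttle, read 7.91, 8.04, 8.05 and 8.105 on control, 8.28, 8.37 and 8.103 on moderate and 8.16, 8.29 and 8.36 on severe arrays. The highest control array lay just above moderate replicate 3, and the other inflamed arrays lay above all controls. The rise of 0.24 (SE 0.07, limma adjusted p = 0.0235) was lost when control replicate 1 was left out (0.20, limma adjusted p = 0.0772), and likewise with the mean over its probe sets (0.15, limma adjusted p = 0.0917).

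In mitochondrial beta-oxidation 7 of 9 genes fell and 1 rose, and Hadha alone did not pass. Acaa2, the thiolase that makes the last cut, fell by 1.003, the most in the group (SE 0.13, limma adjusted p = 0.000109), with 9.65 to 10.02 on control and 8.45 to 9.09 on inflamed arrays. Among the acyl-CoA dehydrogenases, which each take a range of chain lengths, Acadm for medium chains fell by 0.64, Acads for short chains fell by 0.48 and Acadvl for very long chains fell by 0.43. Hadh, the dehydrogenase of shorter chains, fell by 0.54 and Decr1, which handles unsaturated chains, fell by 0.53. The trifunctional protein works on long chains, and its beta subunit Hadhb fell by 0.48 while its alpha subunit Hadha differed by -0.19 (95% confidence interval -0.39 to -0.00, limma adjusted p = 0.101). The adjusted p of the falls lay between 7.93e-05 for Acadm and 0.0342 for Acads.

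The opposite direction was taken by Acadl, the long-chain acyl-CoA dehydrogenase. It read 11.09, 11.46, 11.44 and 11.40 on control, 11.95, 12.06 and 12.00 on moderate and 12.13, 12.10 and 12.10 on severe arrays. The inflamed arrays lay in a narrow band above the controls, with the severe arrays highest. The rise of 0.71 (SE 0.08, limma adjusted p = 4.48e-05) was the largest of any member, and a second, dim probe set differed by 0.37 with overlapping groups.

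The size of some of these falls hung on the probe set. With the mean over a gene's probe sets Hadhb fell by 0.19, where its other probe sets differed by 0.001 and -0.09, and Decr1 fell by 0.82. With probe sets of the most specific kind alone Hadh fell by 0.97. Acads overlapped between the groups, and its call was lost without control replicate 1, 3 or 4, moderate replicate 1 or severe replicate 2 (limma adjusted p from 0.0579 to 0.0936, differences from -0.50 to -0.43). Of the 29 further probe sets of the members that passed, 27 had the direction of the one used.

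**Figure D3:**
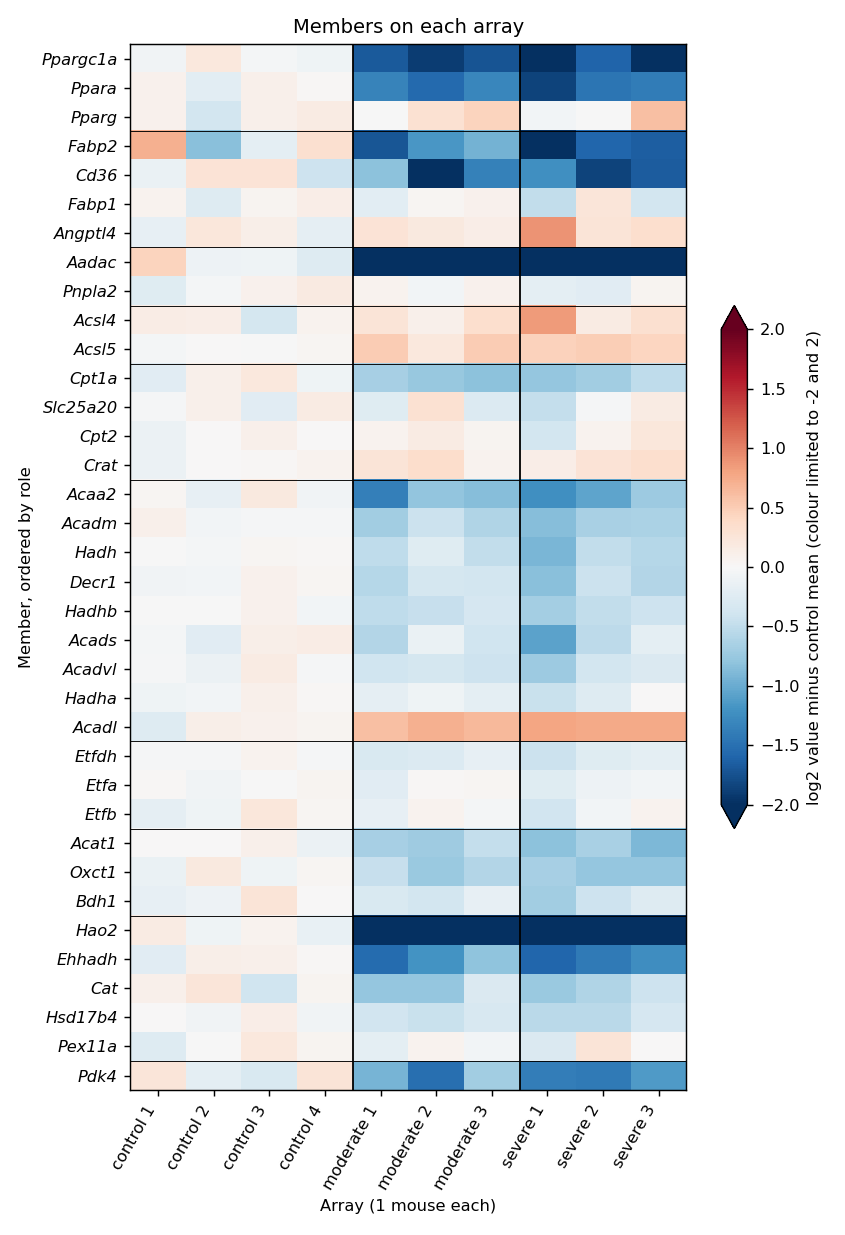
Log2 value of each member (rows, ordered by role) on each array (columns, 1 mouse each) minus the control mean of that member, with the colour limited to -2 and 2. Hao2 and Aadac are at the blue limit on all 6 inflamed arrays, the rows of mitochondrial beta-oxidation are blue on most inflamed arrays except for red Acadl, and the control columns are pale apart from Fabp2.

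Electrons from these dehydrogenases pass through the electron transfer flavoprotein to its dehydrogenase. Etfdh, that dehydrogenase, fell by 0.27 (SE 0.07, limma adjusted p = 0.00644), with 10.19 to 10.30 on control and 9.80 to 10.06 on inflamed arrays, but by the mean with its second, dim probe set the difference was -0.06 (limma adjusted p = 0.465). The flavoprotein's subunits Etfa and Etfb differed by -0.09 (95% confidence interval -0.26 to 0.07) and -0.08 (-0.31 to 0.15).

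All 3 genes of ketone body metabolism fell. Acat1, the mitochondrial thiolase that joins or splits acetoacetyl-CoA, fell by 0.70 (SE 0.09, limma adjusted p = 6.76e-05) and Oxct1, which activates acetoacetate for use as fuel, fell by 0.67 (SE 0.09, limma adjusted p = 0.00012). By the probe sets used, neither overlapped between inflamed and control arrays. The other probe sets of Acat1 differed by -0.58 and -0.63 without overlap. Those of Oxct1 differed by -0.64 without overlap, and by -0.347 and -0.351 with overlapping groups. Bdh1, which interconverts the ketone bodies, fell by 0.37 (SE 0.11, limma adjusted p = 0.0199) with 1 inflamed array reaching into the controls, and without control replicate 3 the difference of -0.28 did not pass (limma adjusted p = 0.0713).

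Of the 5 genes of the peroxisome 4 fell. Hao2, which oxidises long-chain hydroxy acids, read 12.65, 12.41, 12.56 and 12.35 on control, 6.31, 9.01 and 9.85 on moderate and 4.47, 8.56 and 6.43 on severe arrays. The controls lay close together, whereas the inflamed arrays spread over more than 5 log2 units, the widest spread of any member. The difference of -5.06 (SE 0.87, limma adjusted p = 0.000676) was 33.2-fold, and it came to 64.4-fold in severe and 17.2-fold in moderate colon.

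Ehhadh, the bifunctional enzyme of peroxisomal beta-oxidation and a classic PPAR target, read 8.79, 9.14, 9.12 and 9.04 on control, 7.49, 7.84 and 8.22 on moderate and 7.44, 7.60 and 7.78 on severe arrays. All inflamed arrays lay below the controls, with moderate replicate 3 the nearest. Ehhadh fell by 1.30 (SE 0.14, limma adjusted p = 3.4e-05), or 2.46-fold. Hsd17b4, the second bifunctional enzyme, fell by 0.43 (SE 0.07, limma adjusted p = 0.000617). Cat, the catalase that destroys hydrogen peroxide, fell by 0.59 (SE 0.14, limma adjusted p = 0.00463) with 9.25 to 9.89 on control and 8.87 to 9.36 on inflamed arrays, where control replicate 3 lay within the inflamed range, and its second probe set differed by -0.80 without overlap. Pex11a, which serves the division of peroxisomes, differed by -0.03 (95% confidence interval -0.29 to 0.22).

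Pdk4, the kinase that shuts off pyruvate dehydrogenase and so turns cells from glucose to fat, read 5.94, 5.49, 5.40 and 5.95 on control, 4.77, 4.19 and 5.00 on moderate and 4.31, 4.28 and 4.56 on severe arrays. Inflamed and control arrays did not overlap, and moderate replicate 2 was lowest. It fell by 1.18 (SE 0.17, limma adjusted p = 0.000247), or 2.26-fold.

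The grades of inflammation were compared next. In severe colon 22 members fell and 3 rose (Acadl, Acsl5 and Angptl4), against 18.9% and 16.1% of all genes, with a median of -0.50. In moderate colon 19 fell and 2 rose (Acadl and Acsl5), against 16.7% and 13.2%, with a median of -0.39. Of the 22 members that fell in inflamed colon, 19 passed in both grades, while Fabp2, Acads and Bdh1 passed in severe colon alone, and Crat, which rose in inflamed colon, passed in neither grade. The 2 comparisons share the control arrays.

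Set directly against each other, severe and moderate colon differed in 0 members and in 0.0% of all genes by limma, and in 0 members by the methods' t-test after the same adjustment. At an unadjusted p under 0.05 there was 1 member by limma, among 922 genes or 5.07%, and 2 members among 643 genes by the methods' t-test. The limma member was Aadac, 1.87 log2 units lower in severe colon (95% confidence interval -2.62 to -1.13, limma adjusted p = 0.36). The largest difference, that of Hao2, was -1.91 with an interval of -4.07 to 0.26, and that of Ppargc1a was -0.45 with an interval of -0.92 to 0.02. Of the 22 members that fell, 19 had their severe mean farther from control than their moderate mean. The same share was not counted over all genes that fell, and the members share their arrays, so no trend with grade is read from it. The median of severe minus moderate was -0.09 over the members and -0.01 over all genes.

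The other genes of the pathway form 7 lists, likewise chosen with earlier results of these data known, with 126 of 140 genes measured. Of these, 48 fell and 14 rose, or 38.1% and 11.1%, against 21.2% and 18.5% of all genes, and the median was -0.15. The 14 became 9 without control replicate 1, and also 9 with values taken relative to 4 epithelial genes. Of the 15 further genes of mitochondrial oxidation 10 fell, with a median of -0.49. The largest falls were those of Pcca, a subunit of propionyl-CoA carboxylase (-1.43, SE 0.14), and Mcee, the next enzyme of propionate breakdown (-1.08, SE 0.10). With the mean over probe sets Pcca differed by -0.67, less than Mcee.

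Use of ketone bodies and short-chain fatty acids had the lowest median of the lists, -0.85, with 6 of 8 measured genes lower. Acsm3, which activates butyrate and medium-chain acids, fell by 3.00 (SE 0.38, limma adjusted p = 8.22e-05), from a mean of 10.60 ± 0.14 (SD, n = 4) to 7.61 ± 0.87 (SD, n = 6). The monocarboxylate transporter Slc16a7 fell by 1.88 (SE 0.26), and Slc16a1, the main butyrate carrier of colonocytes, fell by 0.56 (SE 0.11). The call of Slc16a1 was lost with the mean over its probe sets, at -0.25.

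The other peroxisomal genes were mixed. Of 31 peroxisomal enzymes 10 fell and 3 rose, with a median of -0.12. Ddo, which oxidises D-aspartate, fell by 1.37 (SE 0.17; with the mean over its probe sets -0.32) and Ephx2, an epoxide hydrolase, fell by 1.08 (SE 0.20), while Acot4, a thioesterase of acyl-CoAs, rose by 0.95 (SE 0.11) and Pipox, an oxidase of amino acids, by 0.72 (SE 0.22). Of 19 peroxins and membrane proteins 8 fell and 1 rose, and the median was -0.14. Pxmp2, a channel of the membrane, fell by 0.40 and Acbd5, which binds acyl-CoA there, fell by 0.37, whereas Pex26, which anchors the import machinery, rose by 0.62 (SE 0.10). The calls of Pipox and Acbd5 did not hold without control replicate 1 or 2, nor that of Pipox without control replicate 3. By the methods' t-test Pipox did not pass either (adjusted p = 0.0616).

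Regulators beyond the 3 members had a median near 0, with 5 of 18 lower and 3 higher. Nrip1, a corepressor of nuclear receptors, fell by 0.93 (SE 0.09; with the mean over its probe sets -0.58) and Ppargc1b, a sister coactivator of Ppargc1a, fell by 0.55 (SE 0.13). Creb3l3, a transcription factor of lipid metabolism in liver and gut, rose by 0.72 (SE 0.14). Ppard, the PPAR found in most tissues, rose by 0.31 (SE 0.10, limma adjusted p = 0.0346). The call was lost without any of 6 arrays, with values from 0.24 to 0.33. The arrays were control replicates 1, 2 and 3, moderate replicate 2 and severe replicates 2 and 3. The call was also lost by the methods' t-test (adjusted p = 0.0584) and relative to 4 epithelial genes (0.24, limma adjusted p = 0.0866). Rxra, the partner receptor, differed by 0.16 (SE 0.09, limma adjusted p = 0.191), and Hnf4a differed by -0.15 (SE 0.09, limma adjusted p = 0.233).

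Among 20 further PPAR targets and genes of lipid handling 7 fell and 3 rose, with a median of -0.20. Retsat, a saturase of retinol, fell by 1.48 (SE 0.16) and Mgll, which splits monoacylglycerol, fell by 1.29 (SE 0.27), although the specific probe set of Mgll differed by -0.01. Fabp5, a binding protein of skin that macrophages also make, rose by 1.69 (SE 0.35), and Slc27a2, a transporter and synthetase of very long chains, by 0.94 (SE 0.24). Fatty acid synthesis was the one list whose median lay above that of all genes, at 0.11, with 4 of 15 genes higher and 2 lower. Acly, which makes cytosolic acetyl-CoA, fell by 1.04 and Gpam, which starts glycerolipid synthesis, fell by 0.85, and with the mean over probe sets they differed by -0.56 and -0.34. In the same list Dgat2, which makes triglyceride, rose by 1.16 (SE 0.17) and Me1, which makes NADPH, by 0.85 (SE 0.29). The call of Me1 was lost without any of the 4 control arrays, moderate replicate 3 or severe replicate 1, with values from 0.79 to 0.89. Counting the other settings, the call of Me1 was lost in 9 of 21.

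**Figure D4:**
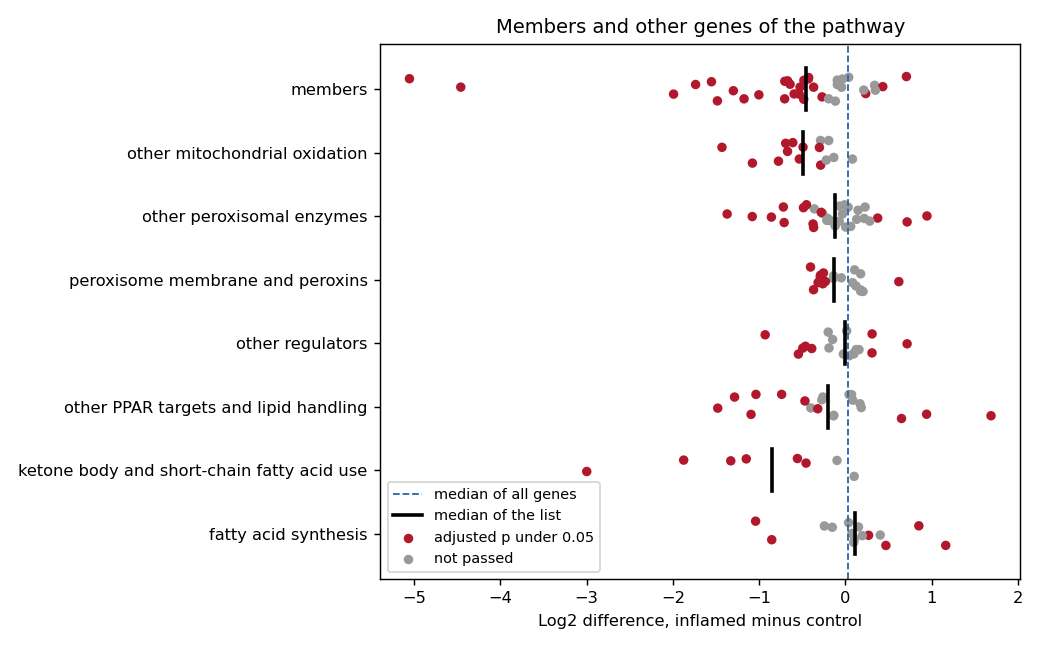
Log2 difference, inflamed minus control (x axis), of each gene (points, red where adjusted p was under 0.05) in the 36 members and the 7 lists of other pathway genes (y axis). Black bars are medians and the dashed line is the median of all genes, 0.03. The list of ketone bodies and short-chain fatty acids has the lowest median, -0.85, and fatty acid synthesis, at 0.11, lies right of the dashed line.

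Genes of mitochondrial content in general, such as Cs and Vdac2, were described as well, as RNA of whole tissue. The amount of the organelle itself was not measured. Of 12 measured genes 3 rose and 4 fell, the median was 0.13, and their mean level was 11.25 to 11.32 on control and 11.18 to 11.36 on inflamed arrays, which overlapped. Relative to the mean of the epithelial genes Epcam, Cdh1, Krt8 and Krt18 on the same array, 23 members were lower and 2 higher. With this scaling 25.2% of all genes were lower in place of 21.2%, and the share of higher among all calls was 34.8% in place of 46.7%. Vdac3, a channel of the outer membrane, fell by 0.69 in this list, and Phb2, a chaperone of the inner membrane, rose by 0.35.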

How the data were processed

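RNA of snap-frozen colon was measured on Affymetrix mouse gene expression arrays, 1 array per mouse. The tissue is distal colon by the labels, while the study's methods describe a lengthwise strip without giving its region. For extraction the labels name Trizol and the study's methods an RNeasy microarray kit. The authors deposited log2 values per probe set, which their processing notes credit to RMA in Affymetrix Expression Console, versions not stated. RMA subtracts background, normalizes quantiles and summarises probes by median polish. It gives arrays a common distribution and compresses differences of dim probe sets. Neither detection calls nor scan dates entered the work. Precision is limited by how many arrays there are. Array medians lay between 5.36 and 5.40, and Pearson's r between arrays of one condition between 0.9893 and 0.9958.

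Of 45101 probe sets, 34945 carry 1 gene in the platform annotation, 932 several and 9160 none, 64 are controls, and for 9010 of 18193 genes the probe set of highest mean was chosen among several. Genes were tested with limma 3.58.1 (lmFit, eBayes, two-sided) in R 4.3.3, Benjamini-Hochberg over all genes, threshold 0.05: inflamed against control in a model of 2 groups, the grades in a model of 3 groups with 1 shared spread. Intervals are at 95%. The labels call the samples biological replicates. Per-array values are given for the 3 regulators and for the 8 largest falls and up to 6 largest rises among members past the threshold, and from each pathway list the 2 largest falls and rises are named, besides Ppard, Rxra, Hnf4a and Slc16a1. Members and lists were chosen with earlier results of these data known. Marker and mitochondrial content genes named singly were chosen after their values were seen.

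Alternatives were the mean over probe sets, only probe sets without an _s_at, _x_at or _a_at ending, dim genes left out, 3 scalings, array weights, another variance model, another design, the methods' t-test, a replicate block, and each array left out. Scripts were tested on simulated data. Promoter sequences are from RefSeq (GRCm38.p6). Plots used matplotlib 3.10.9 under Python 3.11.15.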

Additional observations from a re-analysis of the deposited data

Results flagged for a closer look

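In 15 of 124 groups of arrays (62 genes, control and inflamed arrays taken apart), 1 array lay far from the others of its group by Dixon's test, of which chance gives about 1 in 20. Severe replicate 1 was the array in 8 of the 15. Its log2 value was the lowest of the inflamed arrays for Fabp2 (9.09, next 10.75), Cpt2 (9.75, next 10.17), Acadvl (9.85, next 10.16), Ppargc1b (8.96, next 9.55), Creb3l3 (6.35, next 6.82) and Hnf4a (12.24, next 12.58). It was the highest for Angptl4 (7.14, next 6.57) and Acsl4 (9.15, next 8.64). Moderate replicate 2 was the lowest inflamed array for Acsl5 (10.66, next 10.89).

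Among the controls, replicate 2 was lowest for Pparg (8.80, next 9.25), Fabp1 (3.24, next 3.55) and Mgll (7.50, next 8.06). Control replicate 3 was lowest for Acsl4 (7.96, next 8.38) and highest for Etfdh (10.30, next 10.21), and control replicate 1 was lowest for Acadl (11.09, next 11.40).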

How the results depend on the processing

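Of the 25 members that passed in inflamed against control colon, 21 did so in the same direction in each of 21 settings. The exceptions were Crat in 4 settings, Acads in 7, Etfdh in 1 and Bdh1 in 1. Of the settings, 11 were fitted to all arrays and 10 leave out 1 array. In the replicate block, 1 of the 11, control replicate 4 had no same-numbered inflamed array, so the differences equalled those without it. Over the settings that leave out 1 array, members lower and higher numbered 20 to 22 and 2 to 3 in inflamed, 18 to 23 and 2 to 4 in severe and 15 to 20 and 2 to 3 in moderate colon, and severe against moderate stayed at 0. The other pathway genes lower and higher numbered 41 to 49 and 9 to 15, and 9 were higher relative to 4 epithelial genes, where the median of all genes was -0.04. By the methods' t-test 25 members passed at their threshold and 24 after adjustment, against 46.7% and 37.6% of all genes in either direction. Of the 24 named genes outside the members that passed, 18 did so in every setting. Pcca, Ddo, Nrip1, Acly and Gpam still passed with the mean over probe sets.

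Members that did not pass changed sign in some settings. Angptl4 was -0.009 with specific probe sets alone. Pnpla2 was between -0.123 and 0.017 over the arrays left out, 0.071 with the mean over probe sets, 0.187 with specific probe sets, 0.017 with the replicate block. Cpt2 was -0.035 relative to 4 epithelial genes, -0.002 without control replicate 1 and -0.000105 without severe replicate 3, and at most 0.12. Pex11a lay between -0.119 and 0.035, and was above 0 without control replicate 3 (0.035) or severe replicate 1 (0.019). The cause was not tested. Angptl4 passed with array weights (0.34) and repeated quantile normalization (0.40), and Hadha relative to 4 epithelial genes (-0.27).

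The labels number replicates in each group, and the numbers were not taken as pairs. Deviations of same-numbered arrays from their group means had r of 0.293, 0.254 and -0.03 between severe and moderate colon. Between control and either grade r was -0.078 to 0.057. Differently numbered arrays were not compared, so these values cannot decide whether the numbers mark pairs. With the replicate block members lower and higher were 21 and 3 in inflamed, 20 and 2 in severe and 17 and 2 in moderate colon, and other pathway genes 43 and 12. Control replicate 4 did not enter the differences of that block.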
